A study of Mus musculus with 24 samples.

Results

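The contractile genes of the myofibroblast were followed in MEFs (mouse embryonic fibroblasts) of WT and *tfeb tfe3* DKO genotype. They were taken by gene symbol from the deposited gene table and comprise *Acta2*, *Tagln*, *Cnn1*, *Cnn2*, *Myl9*, *Tpm1*, *Tpm2*, *Cald1*, *Vcl* and *Srf*, 10 of 55487 genes listed, and all 10 were among the 15401 genes with enough counts to be tested. WT MEFs and MEFs lacking *Tfeb* and *Tfe3* were exposed to vehicle (0.1% DMSO), to 100 nM torin1, a catalytic inhibitor of MTOR, or to 10 μM MK-8722, a direct activator of AMPK, and polyadenylated RNA was sequenced from 4 libraries in each of the 6 groups. The doses come from the study's description of the experiment, and the length of exposure of the sequenced cells was not given in the sources used here. The 4 libraries of a group came from cultures of different passage. WT cultures were at passages 7, 8, 9 and 11, the DKO cultures at 8, 9, 10 and 11, and every treatment had each of them once. The genotypes were separate MEF cultures obtained from another laboratory, so that the effect of losing both genes and any other difference between the cultures cannot be told apart. Nothing in the labels says that libraries of a group came from different animals, and p-values measure the spread between these cultures.

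A myofibroblast is a fibroblast that has assembled stress fibers containing smooth muscle actin and pulls on the matrix around it, as in a healing wound or a scar. Its contractile genes are classical targets of serum response factor, encoded by *Srf*, which binds the CArG box of their promoters together with the cofactors MRTFA and MRTFB, and those cofactors enter the nucleus when actin monomers are used up by filament assembly. Fibroblasts grown on stiff plastic take on part of this program without further stimulus, and TGF-beta strengthens it. TFEB and TFE3 are better known for the lysosomal and autophagy genes that they switch on when MTORC1 activity falls.

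Because serum response factor acts through the CArG box, the RefSeq promoter windows of the members (GRCm38.p6, from 250 bases before to 50 bases after the RefSeq start of transcription) were searched for it. Windows were at hand for 9 members, all except *Tagln*. The consensus reads alike on both strands, and 4 of the 9 genes held a match without mismatch (*Cnn2*, *Myl9*, *Vcl* and *Srf*), against 1.63% of all 32851 windows. With 1 mismatch allowed in the A/T centre, *Acta2* was added and the share of all windows was 9.98%. *Cnn1*, *Tpm1*, *Tpm2* and *Cald1* held none. The boxes are shown in capitals within 10 bases on either side, 5′ to 3′ on the strand of the gene, as matches to the sequence that serum response factor binds.
*Srf* chr17:46556225-46556254, minus strand: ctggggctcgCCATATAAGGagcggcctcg
*Srf* chr17:46556205-46556234, minus strand: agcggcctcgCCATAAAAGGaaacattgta
*Cnn2* chr10:79988534-79988563, plus strand: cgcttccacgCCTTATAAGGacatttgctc
*Myl9* chr2:156775293-156775322, plus strand: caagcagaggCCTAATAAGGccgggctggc
*Vcl* chr14:20929161-20929190, plus strand: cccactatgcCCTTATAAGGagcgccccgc
*Acta2* chr19:34255438-34255467, minus strand, 1 mismatch in the centre: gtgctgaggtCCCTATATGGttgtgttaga
*Acta2* chr19:34255388-34255417, minus strand, 1 mismatch in the centre: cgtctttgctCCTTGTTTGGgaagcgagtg
*Myl9* chr2:156775355-156775384, plus strand, 1 mismatch in the centre: cattcttctgCCTTGTAAGGccgggcggcc
The boxes of *Srf* itself began 82 and 62 bases before the RefSeq start, that of *Cnn2* 56 bases, those of *Acta2* 84 and 34 bases, and that of *Vcl* 227 bases before it. The RefSeq starts differ from the ends of the genes as annotated by GENCODE and given below. The boxes of *Acta2* lie inside the gene as given there. No member window held CACGTG, the core of the sites bound by TFEB and TFE3, on either strand, and 7.15% of all windows did. The hexamer GGAATG, on either strand the core of TEAD sites, was present for 4 members (*Acta2*, *Tpm1*, *Cald1* and *Vcl*) and in 14.7% of all windows. A match is a run of letters and not a measured binding site, and a window without one says nothing of the factor.

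Libraries held 24668921 to 33332562 counts on genes. The RNA integrity number was 7.9 for DKO_MK8722 replicate 3 and between 9.7 and 9.9 for every other library. Its part in the results was not tested beyond leaving that library out. *Tfeb* was at 22.95 ± 1.74 CPM (SD, n = 4, counts of the gene scaled to a common library size with TMM) in WT MEFs with DMSO and at 2.25 ± 0.289 CPM in *tfeb tfe3* DKO MEFs, and no DKO library reached the lowest WT library. *Tfe3* was at 120.2 ± 1.17 CPM in WT and 124 ± 2.11 CPM in DKO MEFs with DMSO, so its transcript did not separate the genotypes and the label rests on *Tfeb* here. Fibroblast markers differed widely in level and in part between the genotypes. With DMSO, *Pdgfra*, *Pdgfrb* and *S100a4* were called higher in DKO, and *Col1a2*, *Fn1* and *Thy1* lower. *Pdgfra* was at 5.09 CPM in WT and 25.2 CPM in DKO, and *Fn1* at 2056 and 1439 CPM. *Vim*, which is not confined to fibroblasts, was abundant in both. The level of *Vim* per length was 3023 ± 395 TPM in WT and 2916 ± 307 TPM in DKO MEFs with DMSO, while *Thy1* was at 4.60 ± 1.16 TPM in WT and at 0 in all DKO libraries with DMSO or torin1. Some markers of smooth muscle were close to 0. *Myh11*, the smooth muscle myosin heavy chain, did not exceed 0.119 TPM in any library, *Myocd* did not exceed 0.0486 TPM, and *Kcnmb1* did not exceed 0.0270 TPM. A list of 14 further smooth muscle contractile genes was not near 0 as a whole. With DMSO it summed to between 2685 and 2840 TPM in WT and between 3035 and 3176 TPM in DKO. Of its genes, 10 in WT and 7 in DKO had a mean of at least 1 TPM. The 8 markers of vascular smooth muscle and pericytes, *Myh11* and *Myocd* among them, summed to between 17.1 and 21.1 TPM in WT and between 23.2 and 27.2 TPM in DKO with DMSO, and to at most 45.9 TPM in any library. Most of it was *Cspg4*, at 15.6 ± 1.61 TPM in WT and 24.4 ± 1.87 TPM in DKO with DMSO. Of 4 tested, *Cspg4* was called higher in DKO with DMSO, and *Des* and *Notch3* lower (23.5% and 24.6% of all genes). *Rgs5* of pericytes stayed at or below 0.0314 TPM. The part of these markers in the results was not tested. Endothelial markers summed to at most 0.777 TPM. The name myofibroblast is used for the gene list and not for the state of the cells, which was not tested. In bulk RNA, more cells expressing a gene and more RNA of it per cell cannot be told apart.

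With DMSO, the *tfeb tfe3* DKO MEFs had higher levels of 7 of the 10 contractile genes and a lower level of 1, counting genes that changed at least 1.2-fold with an adjusted p under 0.05. Among all genes tested 23.5% were called higher and 24.6% lower, and the median log2 fold change was 0.60 over the members and -0.01 over all genes tested. The genes that rose were *Acta2*, *Tagln*, *Cnn2*, *Tpm1*, *Cald1*, *Vcl* and *Srf*, and in each of them the lowest DKO library lay above the highest WT library, as it did for 28.4% of all genes. *Cnn1* went the other way by a wide margin, and *Myl9* and *Tpm2* did not pass.

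**Figure D1:**
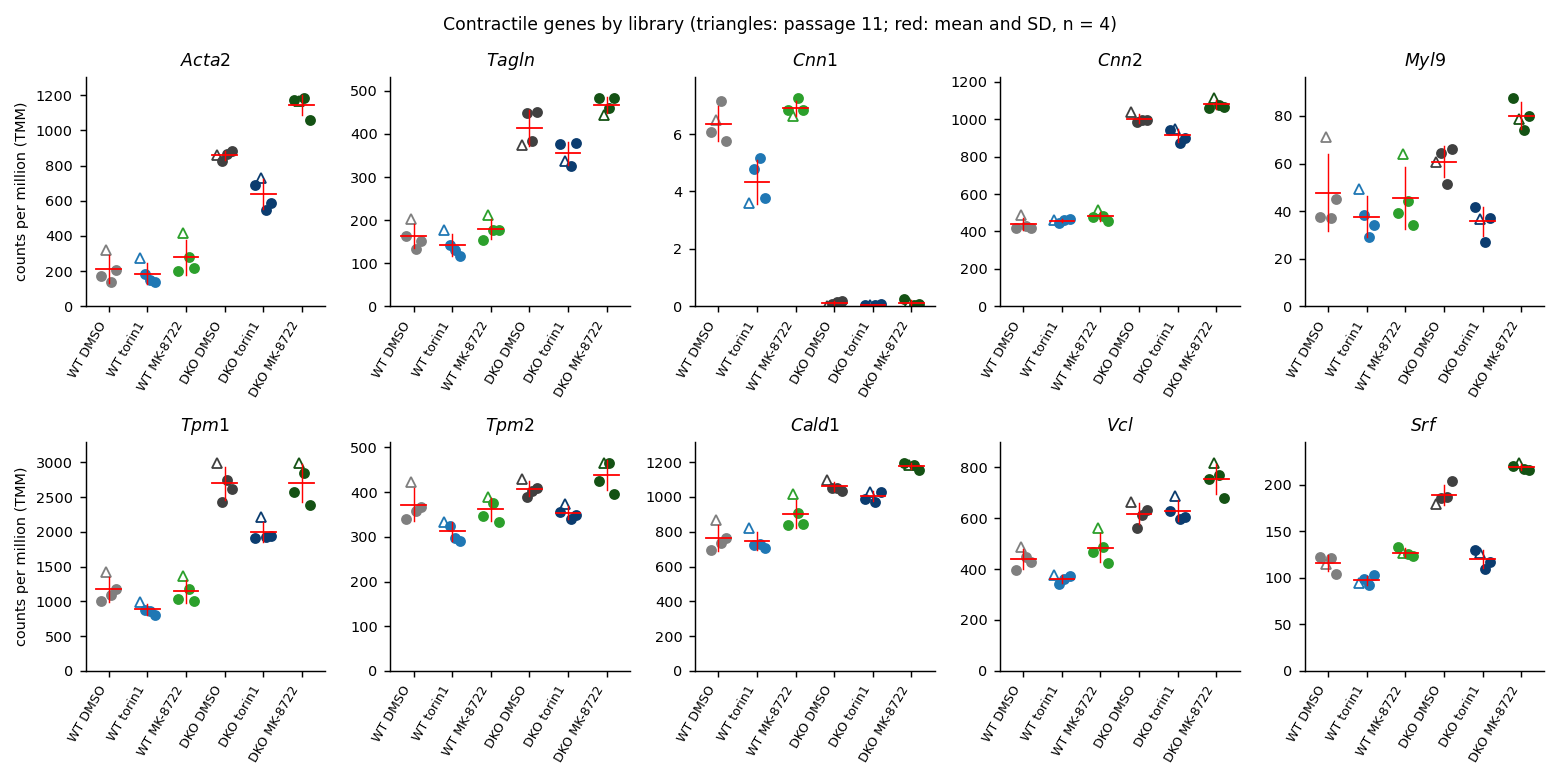
CPM of each of the 10 contractile genes in all 24 libraries, with each vertical axis starting at 0. Points are libraries, open triangles those of passage 11, and red bars the mean ± SD of 4 libraries. *Acta2* lay between 136 and 321 CPM in WT with DMSO and between 823 and 884 CPM in DKO with DMSO, while *Cnn1* was near 0 in all DKO libraries.

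*Acta2* (ENSMUSG00000035783, chr19:34241090-34255590, minus strand), which encodes the smooth muscle actin that defines the myofibroblast, was counted at 173, 321, 136 and 208 CPM in WT MEFs with DMSO. In DKO MEFs with DMSO it was at 859, 823, 868 and 884 CPM. The DKO libraries lay close together and far above the WT libraries, which differed among themselves by more than 2-fold. Its log2 fold change was 2.03 (SE 0.24, adjusted p = 1.03e-07), and it was 1.78 under torin1 (adjusted p = 5.94e-07) and 2.04 under MK-8722 (adjusted p = 9.53e-08). The estimated counts of *Acta2* were not whole numbers (within 0.01) in any of the 24 libraries, which is how salmon writes reads that it divides between similar genes, against 9 libraries for *Srf*, 1 each for *Tpm1* and *Tpm2* and 0 for the other members, and the other muscle actins, *Acta1* and *Actg2*, were also higher in DKO. *Acta1* was at 0.701 ± 0.298 TPM in WT and 5.38 ± 1.40 TPM in DKO with DMSO, and *Actg2* at 1.65 ± 0.470 TPM and 4.03 ± 0.896 TPM. The level of *Acta2* per length was 216 ± 78.8 TPM and 873 ± 28.4 TPM in the same groups. These levels are themselves the outcome of salmon's division of reads. *Actb*, cytoplasmic beta-actin, was also higher in DKO with DMSO, as given below. The part of divided reads in the rise of *Acta2* was not tested.

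The calponin family split. *Tagln* (ENSMUSG00000032085, chr9:45929619-45936058, minus strand), encoding the actin-bundling protein transgelin or SM22, was at 163, 202, 134 and 152 CPM in WT and at 374, 448, 383 and 451 CPM in DKO MEFs with DMSO. The groups did not overlap, and the fold change was 2.54 (log2 1.35, SE 0.12, adjusted p = 1.6e-09). *Cnn2* (ENSMUSG00000004665, chr10:79988584-79996062, plus strand), the calponin of non-muscle cells, was at 417, 488, 430.2 and 421 CPM in WT and at 1037, 985.5, 994 and 994 CPM in DKO. It rose 2.28-fold (log2 1.19, SE 0.04, adjusted p = 2.41e-16), the smallest spread among replicates of any member in DKO with DMSO at a coefficient of variation of 2.33%. *Cnn1* (ENSMUSG00000001349, chr9:22099216-22109630, plus strand), the calponin of differentiated smooth muscle, was low in WT at 6.06, 6.47, 7.17 and 5.76 CPM and almost absent in DKO at 0, 0.0854, 0.154 and 0.2005 CPM. In counts, the WT libraries held 169 to 215 each and the DKO libraries 0 to 5. WT MEFs thus had 59.7-fold more than DKO MEFs with a 95% exact interval of 33.2 to 120.2, and 95.6-fold (40.7 to 296) under torin1 and 57.7-fold (33.5 to 109) under MK-8722, intervals that cover counting error only. *Cnn1* was the only member lower in DKO, and it was lower in all 3 treatments.

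Of the genes that act on myosin and along the filament, *Tpm1* changed most. *Tpm1* (ENSMUSG00000032366, chr9:67022590-67049406, minus strand), the tropomyosin that coats and stabilises actin filaments, was at 1003, 1429, 1086 and 1175 CPM in WT and at 2989, 2435, 2745 and 2623 CPM in DKO with DMSO, 2.30-fold higher (log2 1.201, SE 0.10, adjusted p = 9.82e-10). It was the most abundant member per length, with 1302 ± 207 TPM in WT and 2915 ± 288 TPM in DKO. *Cald1* (ENSMUSG00000029761, chr6:34598500-34775473, plus strand), caldesmon, a brake on myosin ATPase, was at 695, 869, 734 and 762 CPM in WT and at 1098, 1054, 1052 and 1036 CPM in DKO, a log2 fold change of 0.47 (SE 0.06, adjusted p = 4.37e-07). *Tpm2* (ENSMUSG00000028464, chr4:43514711-43523765, minus strand), a further tropomyosin, was at 341, 424, 358 and 367 CPM in WT and at 429, 389.6, 402 and 409.9 CPM in DKO with DMSO. Those groups overlapped, and the log2 fold change was 0.13 (adjusted p = 0.0869). *Tpm2* passed under MK-8722 alone, at 0.28 (adjusted p = 0.000746), and leaving out any of 4 libraries (WT_MK8722 replicate 1 or 4, DKO_MK8722 replicate 2 or 3) brought it to between 0.23 and 0.25, under the fold change required. *Myl9* (ENSMUSG00000067818, chr2:156775420-156781658, plus strand), the regulatory light chain whose phosphorylation switches on myosin, was at 37.45, 71.2, 37.0 and 45.2 CPM in WT and at 60.6, 64.6, 51.5 and 66.2 CPM in DKO with DMSO. One WT library, replicate 2 of passage 11, was above all DKO libraries and the other 3 were below them. The log2 fold change was 0.35 (95% interval -0.07 to 0.76, adjusted p = 0.134), and without that library it was 0.61 (adjusted p = 0.00632).

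*Vcl* (ENSMUSG00000021823, chr14:20929398-21033676, plus strand), which encodes vinculin and couples stress fibers to focal adhesions, was at 395, 486, 446 and 427.5 CPM in WT and at 665, 563, 612 and 629.6 CPM in the DKO libraries with vehicle, a log2 fold change of 0.49 (SE 0.08, adjusted p = 5.77e-06). *Srf* (ENSMUSG00000015605, chr17:46548329-46556175, minus strand) was at 122, 115, 122 and 104 CPM in WT and at 179, 186, 187 and 204 CPM in DKO, a log2 fold change of 0.71 (SE 0.06, adjusted p = 1.66e-10). *Vcl* overlaps *Ap3m1* and *Tagln* overlaps *Pcsk7* on the opposite strand, *Cald1* and *Srf* overlap noncoding genes, and the sources used here do not say whether strand was used in counting.

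The list of skeletal and cardiac muscle markers moved with the genotype as well. Its 10 genes summed to between 14.7 and 20.9 TPM in WT and between 44.6 and 49.1 TPM in DKO MEFs with DMSO. Only 2 of them, *Acta1* and *Tnnt2*, were tested, and both were called higher, as were 23.5% of all genes. *Tnnt2*, cardiac troponin T, was at 10.95 CPM in WT and 26.9 CPM in DKO with DMSO (log2 fold change 1.30, adjusted p = 2.71e-08). *Myod1*, *Myog* and *Myf5* did not exceed 0.0437 TPM in any library. The part of these genes in the rise of the members was not tested.

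Under torin1 and under MK-8722 the difference between the genotypes was measured again. Under torin1, 7 members were higher and 1 lower in DKO (24% and 27.8% of all genes), and under MK-8722, 9 were higher and 1 lower (23.3% and 25.4%). Without overlap of the libraries, 8 members were higher under torin1 (28.6% of all genes) and 9 under MK-8722 (26.7%). The median of the members was 0.61 and 0.80 on the log2 scale. *Tagln* was at 1.32 and 1.38 and *Tpm1* at 1.18 and 1.23, close to their values with DMSO. *Myl9* ranged widest, from -0.08 under torin1 (adjusted p = 0.746) to 0.82 under MK-8722 (adjusted p = 0.00105). These comparisons share no library, but all of them set the same pair of cultures against each other.

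**Figure D2:**
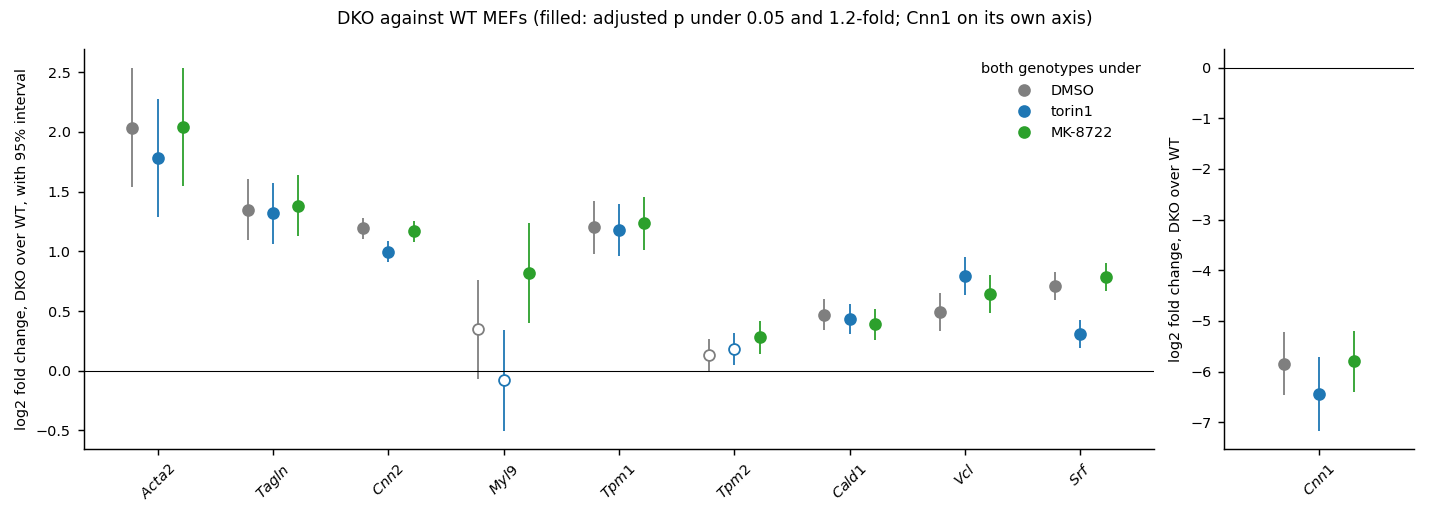
Log2 fold change of DKO over WT MEFs for each contractile gene, with both genotypes under DMSO, torin1 or MK-8722 (n = 4 libraries per group). Bars are 95% intervals, and filled points are genes that changed at least 1.2-fold with an adjusted p under 0.05. *Acta2* sits near 2 in all 3 treatments, *Srf* drops to 0.31 under torin1, and *Cnn1* lies between -6.44 and -5.80 on an axis of its own.

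Torin1 lowered 3 members in each genotype, *Tpm1* in both of them. No member was called higher by edgeR's quasi-likelihood test or by DESeq2's Wald test, and 0 of them were higher at an unadjusted p under 0.05. In WT MEFs, *Tpm1*, *Cnn1* and *Vcl* fell, against 20.5% of all genes called lower and 26.6% called higher. The median log2 fold change of the members was -0.25, and that of all genes tested 0.05. *Tpm1* was at 994, 875, 859 and 812 CPM with torin1, below each of the 4 DMSO libraries (log2 fold change -0.41, SE 0.10, adjusted p = 0.00167). *Cnn1* was at 3.59, 4.80, 5.17 and 3.76 CPM with torin1, again below all DMSO libraries (-0.55, SE 0.17, adjusted p = 0.008). *Vcl* was at 378, 342, 359 and 371 CPM, a change of -0.28 (SE 0.08, adjusted p = 0.0032) that lay at -0.22 without WT_DMSO replicate 2 and at -0.25 without WT_torin1 replicate 2, short of the fold change required. *Srf* and *Tpm2* were also lower in every torin1 library than in any DMSO library, with log2 fold changes of -0.25 (adjusted p = 0.000446) and -0.25 (adjusted p = 0.00179), just under the threshold of a 1.2-fold change. In all, 5 members were lower without overlap, as were 25.7% of all genes.

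*Acta2* in WT MEFs was at 273, 182, 149 and 140.5 CPM with torin1, which overlapped the DMSO libraries. Its log2 fold change was -0.17 with a 95% interval from -0.65 to 0.31 (adjusted p = 0.543), and it turned to 0.11 without WT_DMSO replicate 2. *Tagln* was at -0.20 (-0.45 to 0.06, adjusted p = 0.164) and *Myl9* at -0.34 (-0.76 to 0.08, adjusted p = 0.146). Without WT_torin1 replicate 1, of passage 11, *Tagln* reached -0.35 (adjusted p = 0.011) and *Myl9* -0.52 (adjusted p = 0.0328), and in an alternative fit with passage within genotype as a block *Myl9* was called at -0.32 (adjusted p = 4.14e-05). *Cnn2* and *Cald1* were within 0.06 of 0 on the log2 scale.

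In *tfeb tfe3* DKO MEFs torin1 lowered *Myl9*, *Srf* and *Tpm1*, against 20.2% of all genes called lower and 23% called higher. The median was -0.33 over the members and 0.02 over all genes. *Myl9* was at 41.7, 36.8, 27.0 and 37.2 CPM with torin1, below all 4 DMSO libraries (-0.77, SE 0.20, adjusted p = 0.00226). *Tpm1* was at 1916, 2213, 1931 and 1944 CPM (-0.43, SE 0.10, adjusted p = 0.00106), nearly the change seen in WT. *Acta2* was at 691, 727.5, 546 and 589 CPM, lower than in any DMSO library, yet its change of -0.43 (95% interval -0.91 to 0.05) did not pass (adjusted p = 0.117), while with passage as a block it did (-0.43, adjusted p = 2.72e-07). *Cnn2* and *Tpm2* had an adjusted p of 0.0101 and 0.0108 at log2 fold changes of -0.13 and -0.20, under the fold change required. *Vcl*, which fell in WT, was at 0.03 in DKO (adjusted p = 0.79). A total of 7 members were lower without overlap, as were 26.1% of all genes.

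*Srf* was the member whose response to torin1 passed the test of a difference between the genotypes. With torin1 it was at 94.8, 99.0, 92.4 and 103 CPM in WT and at 130.1, 126, 109 and 117 CPM in DKO MEFs. Set against the DMSO values, the log2 fold change was -0.25 in WT and -0.65 in DKO (SE 0.06, adjusted p = 1.01e-09). The difference between these responses was -0.40 (SE 0.08, adjusted p = 0.00111), and 6.33% of all genes were called with a lower response in DKO and 4.68% with a higher one. *Srf* kept this call in each of 16 fits that left out 1 library. The lower level of *Srf* in DKO with torin1 still exceeded that in WT with torin1 (0.31, adjusted p = 3.67e-05), so that torin1 narrowed the gap without closing it. For *Vcl* the difference of responses was 0.30 (adjusted p = 0.061), and it passed without any 1 of 4 libraries (WT_DMSO replicate 1, WT_torin1 replicate 1 or 3, DKO_DMSO replicate 1), at values from 0.34 to 0.36. The difference for *Cnn2* was -0.19 (adjusted p = 0.0311), under the fold change required. For *Tpm1* it was -0.02 with a 95% interval from -0.33 to 0.28. With passage as a block, *Vcl* passed at 0.30 (adjusted p = 0.000398), and *Acta2* (-0.28, adjusted p = 0.00854) and *Myl9* (-0.45, adjusted p = 0.000317) joined *Srf* with a lower response in DKO.

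**Figure D3:**
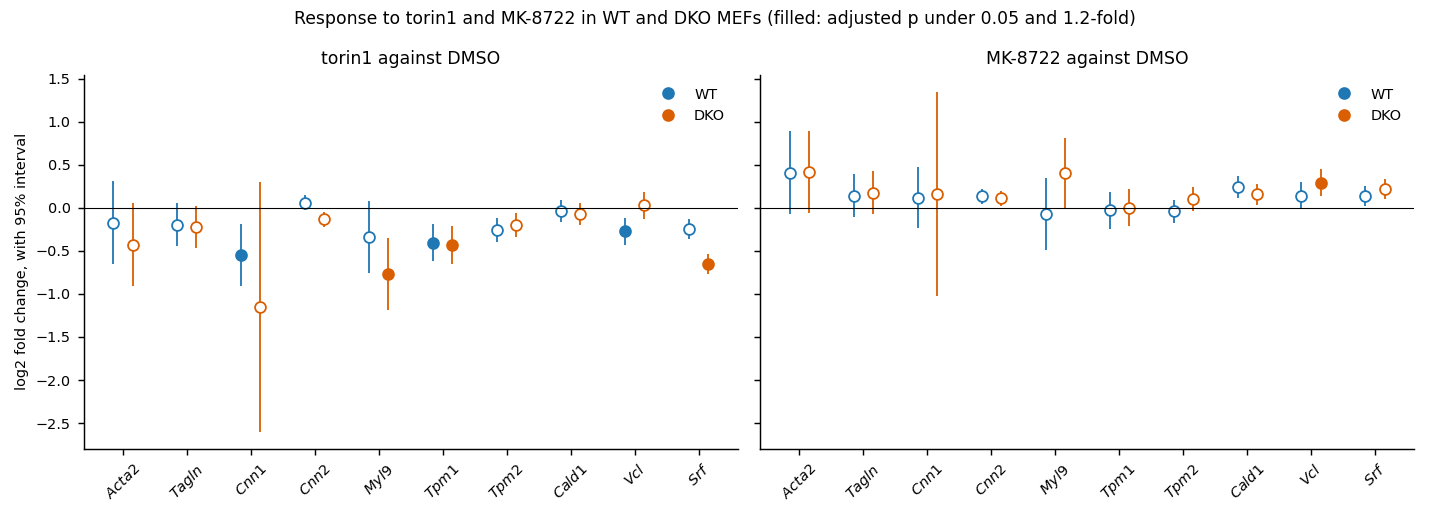
Log2 fold change of torin1 (left) and of MK-8722 (right) against DMSO for each contractile gene, in WT (blue) and DKO (orange) MEFs, n = 4 libraries per group. Bars are 95% intervals, and filled points are genes that changed at least 1.2-fold with an adjusted p under 0.05. *Tpm1* falls by 0.41 and 0.43 with torin1 in the 2 genotypes, *Srf* by 0.65 in DKO, and with MK-8722 only *Vcl* in DKO is filled, at 0.29.

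Few members passed the test with MK-8722. In WT MEFs, 0 of 10 members were called by edgeR's quasi-likelihood test, against 10.3% of all genes called higher and 5.87% lower, and DESeq2's Wald test also called 0. At an unadjusted p under 0.05, 3 members were higher (*Cald1*, *Cnn2* and *Srf*). *Cald1* was at 838, 1018, 906 and 845 CPM with MK-8722, a log2 fold change of 0.24 (SE 0.06, adjusted p = 0.00404) that reached 0.30 without WT_DMSO replicate 2, and *Cnn2* was at 0.13 (adjusted p = 0.0201). *Acta2* was at 199.6, 416, 279 and 218 CPM, a log2 fold change of 0.41 with a wide interval from -0.07 to 0.89 (adjusted p = 0.192). Without WT_DMSO replicate 2 it was 0.69 (adjusted p = 0.0204). It was higher with MK-8722 than with DMSO at each of the 4 passages, and with passage as a block it was 0.42 (adjusted p = 2.43e-06). The median of the members was 0.13, and that of all genes tested -0.01.

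In *tfeb tfe3* DKO MEFs MK-8722 raised *Vcl* alone, against 5.47% of all genes called higher and 3.21% lower. *Vcl* was at 754, 817, 770.5 and 677 CPM with MK-8722 (0.29, SE 0.08, adjusted p = 0.0084), and without DKO_DMSO replicate 2 or DKO_MK8722 replicate 2 its change was 0.25, short of the fold change required. *Srf* was at 219.7, 224, 217 and 216 CPM, above every DMSO library, and its log2 fold change of 0.22 (adjusted p = 0.00731) was also short of it. *Acta2* was at 1173, 1164, 1184 and 1059 CPM, again above every DMSO library, with 0.42 (95% interval -0.06 to 0.89, adjusted p = 0.218). *Myl9* was at 87.6, 78.7, 74.2 and 80.0 CPM, with 0.40 (-0.01 to 0.81, adjusted p = 0.165). With passage as a block both passed (*Acta2* 0.41, adjusted p = 4.21e-06, *Myl9* 0.40, adjusted p = 9.24e-06), so that 3 members were called higher. In all, 6 members (*Acta2*, *Cnn2*, *Myl9*, *Cald1*, *Vcl* and *Srf*) were higher without overlap, as were 11.4% of all genes, and of these only *Vcl* passed. By edgeR's quasi-likelihood test 0 members differed in their response between the genotypes, 0 did at an unadjusted p under 0.05 and 0 by DESeq2's Wald test (1.42% of all genes were called with a higher response in DKO and 4.08% with a lower one). At an unadjusted p the smallest was that of *Myl9*, 0.107, for a difference of 0.47, which passed with passage as a block (adjusted p = 0.000225).

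The drugs were also set against each other. Torin1 libraries had lower levels than MK-8722 libraries for 7 members in WT MEFs, where 20% of all genes were called lower and 24.9% higher, and for 7 in DKO MEFs, where 19.3% were called lower and 21.1% higher. *Acta2*, *Tagln*, *Tpm1*, *Vcl* and *Srf* were called in both genotypes, *Cnn1* and *Cald1* in WT, and *Myl9* and *Tpm2* in DKO. The change was largest for *Myl9* in DKO at -1.17 (SE 0.20, adjusted p = 3.18e-05) among the members with more than a few counts, and that for *Srf* was -0.39 in WT (adjusted p = 2.82e-06) and -0.86 in DKO (adjusted p = 1.41e-11). All 10 members were negative in both genotypes. In WT, *Acta2* at -0.58 (adjusted p = 0.0337) lost its call without any 1 of 5 libraries (WT_torin1 replicate 2, 3 or 4, WT_MK8722 replicate 2 or 3), with values from -0.58 to -0.33, *Tagln* (-0.34) lost it without WT_torin1 replicate 4 (-0.25) or WT_MK8722 replicate 2 (-0.26), and *Cald1* (-0.28) without the same libraries (-0.25 and -0.22). In DKO, *Vcl* at -0.26 lost it with passage as a block, just under the fold change required, and without any 1 of 5 libraries (DKO_torin1 replicate 1, 3 or 4, DKO_MK8722 replicate 2 or 3), with values from -0.26 to -0.23. The comparisons of torin1 and of MK-8722 with vehicle share the DMSO libraries, and this comparison does not use them.

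The spread between WT cultures was shared by most members and was large for some of them. The passage 11 library was the highest of its group for 8 of 10 members under DMSO, 7 under torin1 and 8 under MK-8722. It was the highest for 30.21%, 26.72% and 28.85% of all genes tested. The median member lay 0.25, 0.16 and 0.27 above the other libraries on the log2 scale. *Acta2* in the passage 11 library was 1.86-, 1.74- and 1.79-fold above the mean of the other passages in these treatments, and *Myl9* 1.79-, 1.45- and 1.63-fold. In DKO MEFs the passage 11 library was 1-, 1.195- and 1.02-fold the mean of the others for *Acta2*. The coefficient of variation of *Acta2* with DMSO was 38.1% in WT and 2.99% in DKO, and the median of all genes tested was 7.36% and 7.69%. In WT with DMSO, *Srf*, *Cnn2* and *Vcl* were near that median, at 7.31%, 7.52% and 8.66%. Within groups, the log2 CPM of pairs of members correlated with a median Pearson's r of 0.76 over 45 pairs in 12 WT libraries and 0.38 in 12 DKO libraries, a description of libraries that share passages. In WT *Acta2* ran with *Myl9* (r = 0.95), *Tagln* (0.94), *Cald1* (0.93) and *Tpm1* (0.93), but not with *Srf* (-0.37), whose level was not the highest in any WT library of passage 11. In DKO the r of *Acta2* with *Srf* was 0.79. Passage 11 was the latest of WT, each passage of a genotype was represented by 1 library per treatment, and what else set these cultures apart was not tested.

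**Figure D4:**
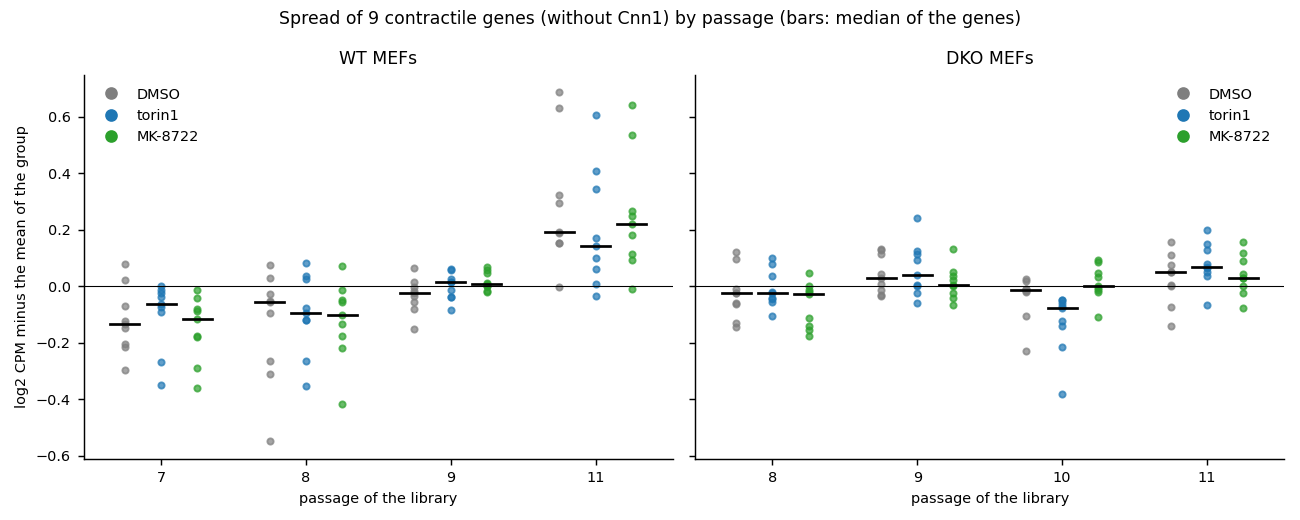
Log2 CPM of 9 contractile genes (without *Cnn1*, whose DKO counts were too low) minus the mean of their group, by the passage of the library in WT (left) and DKO (right) MEFs. Each point is a gene in a library and each black bar the median of the genes. The WT libraries of passage 11 have a median above 0 in all 3 treatments, with *Acta2* 1.74- to 1.86-fold above the mean of the other passages.

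Salmon's transcript estimates set *Tpm2* apart between the genotypes in all 3 treatments. Over 33 transcripts of 9 members (all except *Cnn1*) that made up at least 5% of their gene in a group, the shares of 3 did not overlap between WT and DKO with DMSO, all of them *Tpm2* transcripts. Among 14118 transcripts of all tested genes with a mean of at least 50 TPM, 5.96% were apart in that comparison, as were 4.91% of 49825 transcripts without that minimum. Under torin1 6 were apart (9.31% of the 14118), the same 3 with Acta2-201, Acta2-202 and Myl9-204, and under MK-8722 4 (6.02%), the same 3 with Tpm1-211. Tpm2-203 held 62.55% ± 1.73 of the TPM of *Tpm2* in WT and 74.6% ± 0.924 in DKO with DMSO (SD, n = 4). Tpm2-202 held 18.2% ± 0.664 in WT and 7.31% ± 0.740 in DKO, and the values were 16.8% ± 0.875 and 6.36% ± 0.294 under torin1. These transcripts share the coding parts of exons 1 to 5, 7 and 8 and use alternative coding forms of exon 6 and of the last exon. The exons 6 are shown because the reads that tell the transcripts apart can fall on them, in transcript direction (minus strand, GRCm38, GENCODE M21), with the bases that differ in capitals.
Tpm2-203 exon 6, chr4:43519003-43519078: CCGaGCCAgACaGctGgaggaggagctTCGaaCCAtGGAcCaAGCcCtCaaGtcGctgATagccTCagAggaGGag
Tpm2-202 exon 6, chr4:43518644-43518719: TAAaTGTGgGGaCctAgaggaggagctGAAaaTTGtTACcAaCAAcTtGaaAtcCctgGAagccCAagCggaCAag
They have 76 bases each and 41 of them are identical (53.9%). The form in Tpm2-203 is the one of smooth muscle and fibroblasts, and that in Tpm2-202 the one of striated muscle. The gene as a whole did not differ between the genotypes with DMSO, as given above. Torin1 set 4 of the 33 shares apart from DMSO in WT (9.67% of the 14118) and 4 in DKO (10.1%), Tpm2-202 and Cald1-212 in both, and MK-8722 set 1 apart in each genotype (3.29% and 2.98%). Of the 33, Cald1-212 was the only transcript whose share changed without overlap with both drugs in both genotypes. It went from 18.35% ± 0.893 with DMSO to 14.6% ± 1.13 with torin1 and 16.2% ± 0.776 with MK-8722 in WT. In DKO it went from 19.35% ± 0.664 to 16.5% ± 0.712 and 17.5% ± 0.453. How many of all transcripts were apart in all of these comparisons was not counted, so this is a description only. The shares were not tested.

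**Figure D5:**
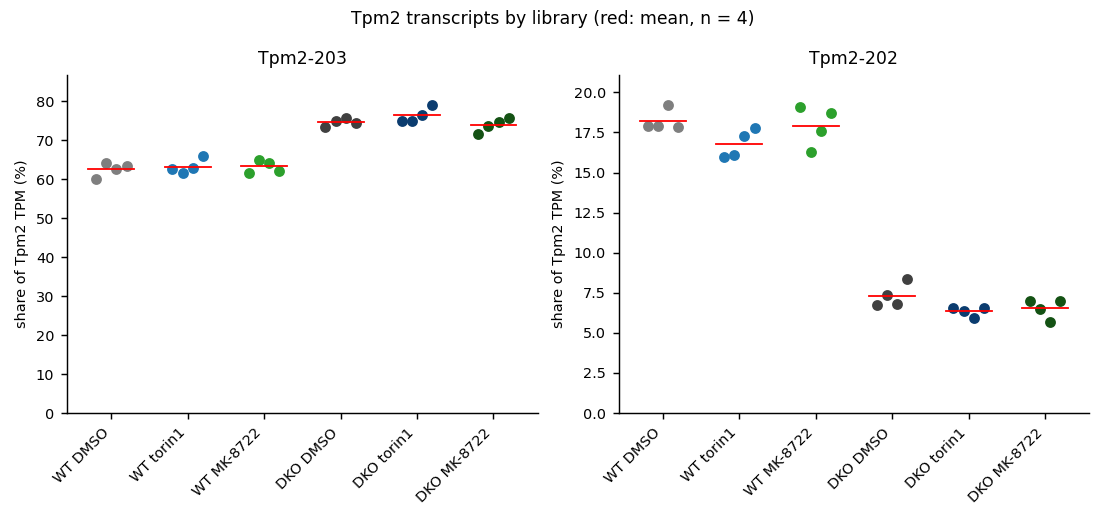
Share of the *Tpm2* TPM held by Tpm2-203 (left) and Tpm2-202 (right) in each library, with axes from 0. Points are libraries and red bars the mean of 4. Tpm2-203 lies between 60.1% and 65.9% in WT and between 71.6% and 79.0% in DKO, and Tpm2-202 between 15.98% and 19.2% in WT and between 5.70% and 8.33% in DKO.

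Cofactors and upstream pathways of *Srf* were also read out. Of 7 genes listed as cofactors and tested, 4 were higher and 1 lower in DKO with DMSO (23.5% and 24.6% of all genes). *Fhl1*, which encodes a LIM-domain protein and was put in this list, was at 112 ± 5.24 CPM in WT and 767.5 ± 18.5 CPM in DKO (log2 fold change 2.78, adjusted p = 3.18e-22), a larger rise than that of any member. Whether its product acts with serum response factor in these cells was not tested. *Elk1*, a cofactor of the ternary complex class, was 0.89 higher (adjusted p = 3.29e-14). *Mrtfa* fell with torin1 in WT by 0.50 on the log2 scale (adjusted p = 3.09e-09) and was at -0.06 in DKO (adjusted p = 0.307), a difference of responses of 0.44 (adjusted p = 4.68e-05), opposite in sign to that of *Srf*. *Mrtfb* rose with torin1 in DKO (0.39, adjusted p = 5.64e-08).

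Among 17 genes of TGF-beta ligands, receptors, SMADs and close targets, 9 were higher and 1 lower in DKO with DMSO (23.5% and 24.6% of all genes). The median was 0.32. *Thbs1*, whose product can activate latent TGF-beta, was at 471.7 ± 151 CPM in WT and 3283 ± 236 CPM in DKO (2.80, adjusted p = 2.8e-10). *Ltbp2* rose by 2.01 (adjusted p = 8.99e-11) and *Tgfb1* itself by 0.78 (adjusted p = 2.17e-13). With torin1, 8 genes of this list were called higher and 2 lower in WT (26.6% and 20.5% of all genes). In DKO 9 were called higher and 1 lower (23% and 20.2%). *Smad3* was the one that rose most in DKO, at 1.08 (adjusted p = 8.95e-11). Of 13 YAP and TEAD genes with their targets, 7 were higher and 2 lower in DKO with DMSO (23.5% and 24.6% of all genes). *Ccn2* was at 1.63 (adjusted p = 5.85e-09) and *Ankrd1* at -2.49 (adjusted p = 6.6e-15). *Ccn1* and *Ccn2* rose with MK-8722 in WT, at 0.69 (adjusted p = 5.47e-05) and 0.95 (adjusted p = 5.65e-05).

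Most non-muscle actomyosin genes fell with torin1 in WT. Of the list, 9 of 15 were lower and 2 higher in WT (20.5% and 26.6% of all genes). In DKO 6 were lower and 2 higher (20.2% and 23%). The medians were -0.37 in WT and -0.12 in DKO. *Actb*, cytoplasmic beta-actin, was at -0.61 in WT (adjusted p = 1.19e-10) and -0.63 in DKO (adjusted p = 8.24e-11), *Cfl1*, the filament-severing cofilin, at -0.61 and -0.52 (adjusted p = 4.86e-13 and 7.93e-12), and *Cnn3*, the third calponin, at -0.59 and -0.54 (adjusted p = 9.93e-12 and 5.48e-11). *Myh9*, the heavy chain of non-muscle myosin, rose in DKO (0.62, adjusted p = 6.17e-13). With MK-8722, 1 gene of this list was called in WT, *Actg1*, at 0.37 (adjusted p = 2.01e-05), and 0 in DKO by edgeR's quasi-likelihood test, where 9 had an unadjusted p under 0.05. Of all genes, 10.3% were called higher and 5.87% lower in WT, and 5.47% and 3.21% in DKO. Between the genotypes with DMSO, 4 of the 15 were higher and 2 lower, near and below the shares of all genes (23.5% and 24.6%). *Tagln2*, the non-muscle transgelin, was at 0.74 (adjusted p = 1.92e-15) and *Actb* at 0.59 (adjusted p = 1.82e-10).

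Of 18 focal adhesion and actin-crosslinking genes, 1 was higher and 6 lower with torin1 in WT (26.6% and 20.5% of all genes), and 4 were higher and 3 lower in DKO, the latter near the shares of all genes (23% and 20.2%). *Flnc*, filamin C, fell in both (-1.17, adjusted p = 2.32e-14, and -0.72, adjusted p = 5.1e-11), *Flna*, filamin A, rose in DKO (0.56, adjusted p = 1.26e-11), and *Tgfb1i1*, the focal adhesion adaptor HIC-5, rose in WT and in DKO (1.12, adjusted p = 6.8e-14, and 0.84, adjusted p = 5.9e-12). In DKO with DMSO 8 were higher and 4 lower (23.5% and 24.6% of all genes), with *Tgfb1i1* at 1.45 (adjusted p = 2.85e-16) and *Flnc* at -1.30 (adjusted p = 1.23e-15). Of 12 further smooth muscle contractile genes tested, 2 were higher and 4 lower in DKO with DMSO (23.5% and 24.6% of all genes). *Csrp1* was at 0.84 (adjusted p = 1.51e-10) and *Mylk*, the kinase of the regulatory light chain, at -0.60 (adjusted p = 0.00127). *Col1a1* and *Col1a2*, the chains of type I collagen that myofibroblasts deposit, were at -0.30 (adjusted p = 0.213) and -0.77 (adjusted p = 0.00669) in DKO with DMSO. Both fell with torin1 in WT (-1.12, adjusted p = 7.73e-05, and -1.01, adjusted p = 0.000778) and in DKO (-1.10, adjusted p = 0.000113, and -1.16, adjusted p = 0.000219).

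The genes whose log2 CPM over the 24 libraries was most like that of *Acta2* were *Azi2*, *Dysf*, *Lurap1l*, *Thbs1* and *Mecom* (Pearson's r 0.97 to 0.98). For *Tagln* they were *Thbs1*, *Fbln5*, *Lurap1l*, *Usf1* and *Tab2* (0.98 to 0.99), and for *Srf* *Dnaja4*, *Lbr*, *Wtip*, *Dcun1d3* and *Oat* (0.96 to 0.97). The libraries share genotype, treatment and passage, and the coefficients are a description with no test. Within WT alone, r for *Acta2* with its 5 genes was 0.81 to 0.87, and within DKO alone 0.76 to 0.96. The ranking depended on the coefficient. By Spearman's coefficient, *Fbln5* ranked 1 for *Tagln*, *Dysf* 60 for *Acta2* and *Dnaja4* 215 for *Srf* (0.865).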

How the data were processed

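mRNA libraries of 24 MEF cultures in 6 groups were analysed, with groups taken from the sample labels. The authors ran nf-core/rnaseq with STAR and salmon on GRCm38 and considered UMIs, and the values that they deposited are estimated counts and TPM from salmon, for genes and for transcripts. Whether counting used strand was not given in the sources used here. Deposited estimated counts were rounded. Deposited TPM served only for levels per length and transcript shares (transcripts of at least 5% of a gene in any group), with no test.

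A model with a mean for each of the 6 groups was fitted to the 24 libraries in edgeR 4.0.16 (quasi-likelihood, legacy dispersion, TMM, filterByExpr with a minimum count of 10) in R 4.3.3, with Benjamini-Hochberg adjustment over all 15401 genes tested. Every adjusted p in the text is from this test unless another is named. SE is that of the log2 fold change. A gene was called where it changed at least 1.2-fold with an adjusted p under 0.05. The study's methods mention removal of a batch that they do not name, and the labels give a single batch, so none was removed. Libraries held 24668921 to 33332562 counts, and the fit had 18 residual degrees of freedom and a biological coefficient of variation of 10.7%.

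The members and gene lists were chosen with earlier results of these data known. All 10 members are named. From each other list at most 4 called genes per comparison were eligible by size of change (mean of at least 2 log2 CPM), besides defining markers near 0, and the 5 genes most correlated with *Acta2*, *Tagln* and *Srf*. *Vim*, *Acta1*, *Actg2* and *Thy1*, and values of eligible genes in further comparisons, were added after they were seen. Replicates were not duplicates (chi-square per degree of freedom 3.97 to 40.6 over 36 pairs). Tested on simulated data for torin1 against DMSO in WT (15007 genes), the fit called 81 of 98 genes changed by 1 on the log2 scale, 66 of 95 changed by 0.5 and 2 unchanged genes. The simulated libraries were drawn independently, with no genotype difference and no shared effect of passage. These counts of calls need not carry over to the real libraries. Alternatives were other filters, scalings, tests (DESeq2 1.42.0, limma 3.58.1 voom), thresholds, a length offset, blocks and left-out libraries. Results for 1 further gene list and 1 gene of another list are not reported here.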

Additional observations from a re-analysis of the deposited data

Results flagged for a closer look

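The torin1 response of *Srf* differed between the genotypes, with a log2 fold change in DKO minus that in WT of -0.40 (adjusted p = 0.00111, edgeR quasi-likelihood test). It was lower in all 4 torin1 libraries than in any DMSO library in both genotypes.

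In 3 of 60 groups of 4 libraries, a library stood apart from the others by more than Dixon's critical value for the gap to the nearest library over the range of log2 CPM, and chance gives about 1 in 20 groups. *Acta2* in DKO with MK-8722 was lowest in replicate 4 of passage 8 (1059 against 1164 to 1184 CPM, ratio 0.852). *Tpm1* in DKO with torin1 was highest in replicate 2 of passage 11 (2213 against 1916 to 1944 CPM, ratio 0.902). *Cnn1* in DKO with torin1 was highest in replicate 4 of passage 8 (ratio 0.955), where the libraries held 1 to 2 counts.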

How the results depend on the processing

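Over 16 alternative settings, 1568 of 1656 member values kept their direction and their side of the threshold, 34 lost a call, 39 gained one and 15 changed sign, and the cause was not tested where none is given. Members lower with torin1 in WT (3) were 5 with no filter, with the adjusted p alone and with only the groups compared, and 1 with 10 counts required in every library and with the test against a fold change of 1.2. Requiring 10 counts in every library removed *Cnn1*, so that 0 members were lower in DKO than in WT in the 3 treatments. For a higher torin1 response in DKO (0), *Vcl* made it 1 with DESeq2 size factors, DESeq2, only the groups compared, the block on passage, and without the WT libraries of passage 11. For a lower one (1), it was 0 with the test against 1.2, 2 with the adjusted p alone and 3 with the block on passage. Members lower with torin1 than with MK-8722 were 4 with library size alone and 3 with the test against 1.2 in WT (7), and 3 with the latter in DKO (7). Members higher with MK-8722 in DKO (1) were 0, 2, 3 and 3 with the test against 1.2, the adjusted p alone, only the groups compared and the block on passage. In WT (0) they were 2 with the adjusted p alone, 1 with the block on passage and 1 without WT passage 11. Members lower with torin1 in DKO (3) were 5 with the adjusted p alone, and a higher MK-8722 response in DKO (0) became 1 with the block on passage (*Myl9*, 0.47, adjusted p = 0.000225).

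*Tpm1* with MK-8722 in DKO was -0.007 with no filter, -0.0041 with the length offset and -0.0061 with the block on replicate number. The MK-8722 difference of responses of *Acta2* was -0.0016, -0.0039, -0.0096, -0.003 and -1e-04 with no filter, voom, the replicate number block, the passage block and without WT passage 11. That of *Cnn1* was -0.0059 with the passage block, and its torin1 difference, -0.60 in the report's fit (SE 0.68), 0.05 with voom. Library size alone, which moved the median of all genes to 0.14 for torin1 in WT, -0.164 for DKO against WT under torin1 and 0.124 for torin1 against MK-8722 in WT, gave 0.0548 for *Cald1* with torin1 in WT, -0.0051 for the torin1 difference of *Tpm2* and 0.0071 for *Cnn2* between the drugs in WT. Without WT passage 11, *Myl9* in DKO against WT under torin1 was 0.0889 and the torin1 difference of *Tagln* 0.0265.

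Leaving out 1 library gave 2 to 7 members lower with torin1 in WT, 3 to 4 in DKO, 4 to 8 and 6 to 7 lower with torin1 than with MK-8722 in WT and DKO, 0 to 2 and 0 to 1 higher with MK-8722, 7 to 8, 7 to 7 and 8 to 9 higher in DKO under DMSO, torin1 and MK-8722, and 0 to 1 with a higher torin1 response in DKO. Members that changed sign then ranged, with torin1 in WT, from -0.443 to 0.1081 (*Acta2*) and -0.1152 to 0.0267 (*Cald1*). In DKO *Vcl* ranged from -0.021 to 0.071. With MK-8722 in WT the ranges were -0.2918 to 0.1892 (*Myl9*), -0.1345 to 0.0779 (*Tpm1*) and -0.0909 to 0.0239 (*Tpm2*), and in DKO -0.47 to 0.6181 (*Cnn1*) and -0.0499 to 0.0565 (*Tpm1*). *Myl9* in DKO against WT under torin1 ranged from -0.1747 to 0.0894. The torin1 difference of responses ranged from -0.5293 to 0.029 (*Acta2*), -0.1384 to 0.1405 (*Tagln*), -0.1245 to 0.0769 (*Tpm1*), -0.0077 to 0.127 (*Tpm2*) and -0.0964 to 0.0524 (*Cald1*), and that of MK-8722 from -0.276 to 0.2818 (*Acta2*), -0.0855 to 0.1386 (*Tagln*), -0.5879 to 0.5009 (*Cnn1*), -0.0799 to 0.0218 (*Cnn2*) and -0.0766 to 0.1435 (*Tpm1*).

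Same-numbered libraries did not deviate together (13 of 60 pairs with r over 0.1, and 7 of 24 libraries correlated best with their own number), and the block on replicate number moved 1 count, members lower with torin1 than with MK-8722 in DKO, to 6. Libraries of 1 passage within a genotype did so in part (17 of 24 pairs, r 0.022 to 0.657, and 22 of 24 libraries best with their own passage), a hint from the data. With that block *Acta2* passed with MK-8722 in WT (0.42) and DKO (0.41), and with torin1 in DKO (-0.43). That block was coded within genotype and so gives no value for DKO against WT. A block on the passage numbers that the genotypes share (8, 9 and 11) was not run.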
